A study of Mus musculus with 6 samples.

Results

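The cells described here are the T and NK lymphocytes of the mouse heart, taken from single-cell RNA sequencing of non-cardiomyocytes. They were chosen cell by cell on raw UMI counts (UMIs are the molecular tags that count each captured mRNA once). A cell entered the CD3 fraction with at least 2 UMIs summed over Cd3e, Cd3d and Cd3g, and the NK fraction with at least 1 UMI of Ncr1 or Klrb1c together with at least 2 UMIs of Nkg7. Cells with a UMI of the B cell gene Cd79a, the macrophage gene Csf1r, the endothelial gene Cdh5 or the fibroblast gene Col1a2 were left out, as were cells in which S100a8 and S100a9 made up 1% or more of UMIs. Of the 30014 kept cells in 6 libraries, 318 were members, 273 in the CD3 fraction and 45 in the NK fraction. Of the 273, 11 also met the NK rule and were counted with CD3.

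The hearts came from male mice aged 8 to 12 weeks, either wild type of strain C57BL/6JRj (WT) or Trpm4 knockout of strain B6.Cg-Trpm4tm1.2-PG (KO). Mice of both genotypes were operated: sham hearts were taken at 24 h, and hearts with a ligated left anterior descending coronary artery (LAD) at 24 h or 72 h. Ventricles were rinsed, digested with thermolysin and papain and passed through meshes, living cells were taken by a Calcein-AM and DAPI sort, and cells of 4 mice were pooled for each 10x 3' library. With 1 library in each of the 6 groups there was no replicate and no test, and genotype, operation and library preparation cannot be told apart. Every interval below is a 95% interval that covers counting error only. Hearts were rinsed, so lymphocytes of the blood and of the tissue cannot be told apart either.

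T cells recognise antigen through a receptor made of variable chains (from Trac, Trbc1 and Trbc2, or Trdc and the gamma genes) and the signalling chains of the CD3 complex. Naive and central memory T cells circulate between blood and lymph nodes with the help of Ccr7 and S1pr1, whereas effector cells carry granzymes and chemokines and enter tissue. NK cells lack a rearranged receptor, kill with perforin and granzymes, and sense targets through receptors of the Klr gene complex and Ncr1. After infarction, lymphocytes are a small leukocyte class beside neutrophils and macrophages.

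The values below are in the order WT sham, KO sham, WT ligation 24 h, KO ligation 24 h, WT ligation 72 h and KO ligation 72 h. The CD3 fraction held 14, 11, 59, 70, 76 and 43 cells, and the NK fraction 5, 12, 5, 7, 8 and 8. Median depth was 3483 to 5174.5 UMIs in CD3 cells and 2521.5 to 3719 in NK cells, while the median of all kept cells ranged from 2182.5 in KO at 72 h to 8559 in WT at 72 h. CD3 cells were thus of like depth across libraries although the libraries as a whole were not. Between 26 and 48 deposited barcodes per library also occurred in another library, among them 2 members, 1 in each KO library taken at 24 h.

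Trpm4, the gene deleted in KO, encodes a cation channel opened by intracellular calcium that is known to limit calcium entry in T cells. It lies on chromosome 7 at 45302632 to 45333780. Lymphocytes held 2 Trpm4 UMIs in all, 1 in a WT and 1 in a KO CD3 cell at 72 h, and 0 in NK cells, so its level in these cells could not be compared between genotypes. In all other kept cells Trpm4 was at 8.81 and 6.05 CPM (the share of summed UMIs, scaled to 1e6) in sham, 5.56 and 3.48 CPM at 24 h and 4.25 and 2.56 CPM at 72 h, in WT and KO, lower in KO each time. The deleted part of Trpm4 is not given in the labels, and a 3' count may lie outside it.

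Marker genes were read next, as a description of what the rule picked. The CD3 genes lie side by side on chromosome 9 (GRCm38), Cd3g at 44969572 to 44980431, Cd3d at 44981786 to 44987339 and Cd3e at 44998740 to 45009627. Cd3d was at 931, 926, 807, 1036, 1051 and 629 CPM in the CD3 fractions, and had 1 UMI in all NK cells together. Trac, the constant part of the receptor alpha chain, was found in 198 of 273 CD3 cells and in 0 of 45 NK cells, where the count of 0 allows up to 21.1 CPM. A constant region of the alpha or beta chain, which the rule did not use, had a UMI in 13 of 14, 11 of 11, 57 of 59, 68 of 70, 75 of 76 and 37 of 43 CD3 cells. Such a UMI was thus present in nearly all CD3 cells of 5 libraries, and in a smaller part in KO at 72 h. Beta chain transcripts were also found in NK cells, so this marker does not by itself separate T cells from NK cells. Trac, which NK cells lacked, was found in fewer of the CD3 cells. In endothelial cells, which should lack these genes, a CD3 UMI was found in 0% to 0.162% of cells, at median depths of 2153 to 4259.5 UMIs. Among neutrophils the share was 0.784% to 2.73%, highest in KO at 72 h with 16 of 587 cells, at median depths of 1805 to 3349 UMIs.

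NK cells carried the genes of that class. Ncr1, an activating receptor on chromosome 7 at 4337724 to 4345164, was at 1775, 1231, 856, 844, 1082 and 589.7 CPM in the NK fractions and between 0 and 53.2 CPM in the CD3 fractions. Gzma, a granule protease, had 1908 UMIs in 41 of 45 NK cells (13412 CPM) against 621 UMIs in 20 of 273 CD3 cells (486 CPM). The perforin gene Prf1 stood at 907 CPM against 34.4 CPM, and Fcer1g, a signalling adaptor, at 3578 against 155 CPM. Transcripts of the beta chain constant region Trbc1 were nevertheless present in 28 of 45 NK cells (54 UMIs), and of Trbc2 in 12. The NK transcription factor Eomes was found in 17 NK cells and Tbx21 in 10.

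Over 3178 measured genes, 112 were higher in the CD3 fraction in all 6 libraries and 637 were higher in the NK fraction in all 6. A count of 0 was scored as 3 UMIs when the other fraction had a UMI. This weighs more in the NK fractions (14088 to 34942 UMIs) than in the CD3 fractions (47505 to 374087 UMIs). A gene unseen in NK cells could thus be scored as higher there, so 637 and 112 cannot be set against each other. The highest on the CD3 side by their smallest difference were Cd3d, Ms4a6b, Cd3g, Rps20, Trac, Rps19, Cd8b1, Trbc2, Il7r and Rplp0, which places ribosomal protein genes among the receptor genes. Those on the NK side were Klrb1c, Klre1, Klra9, Ncr1, Prf1, Klrk1, Gzma, Sytl3, Fcer1g and Klra8. Klrb1c, Klrd1, Klre1, Klrk1, Klra8 and Klra9 all lie in the NK gene complex on chromosome 6, from Klrb1c at 128778485 to the end of Klra9 at 130193112. Klra8 and Klra9 belong to a family of near-identical genes, so their separate counts are uncertain. As the rule chose the cells on these genes, the differences describe the choice and were not tested.

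**Figure D1:**
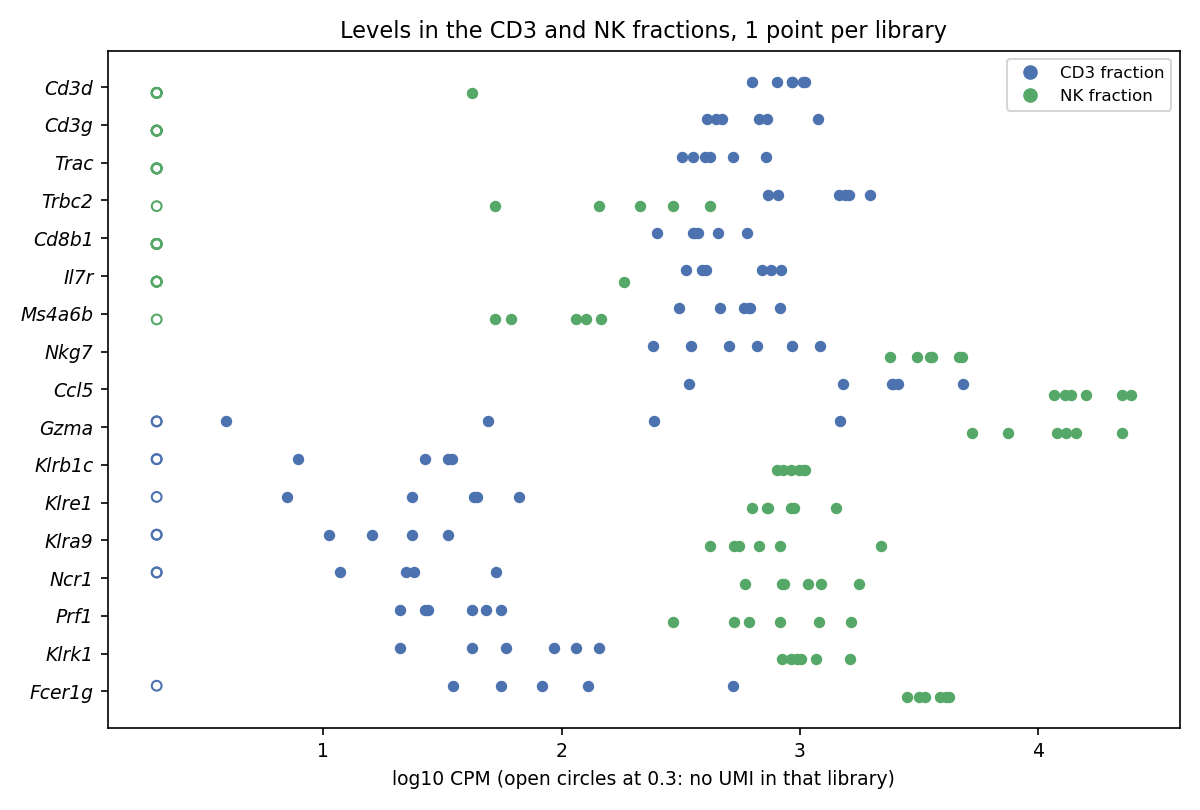
Level of 17 genes in the CD3 fraction (blue) and the NK fraction (green) of the 6 libraries, as log10 CPM on the horizontal axis; 1 point is 1 library and open circles mark libraries without a UMI. Receptor genes such as Cd3d and Trac lie to the right in the CD3 fraction, Klrb1c, Ncr1 and Prf1 in the NK fraction, and Nkg7 and Ccl5 are present in both at different levels.

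The rule's threshold mattered most in KO at 72 h. Cells with exactly 2 CD3 UMIs, just inside the rule, numbered 0, 0, 7, 11, 1 and 15, and cells with 1 CD3 UMI that the rule left out numbered 3, 2, 2, 4, 1 and 17. In KO at 72 h, 11 of the 43 CD3 barcodes carried at least 10 UMIs of the MHC class II genes H2-Aa, H2-Ab1, H2-Eb1 and Cd74, and no CD3 barcode of the other 5 libraries did. Those 11 had a median of 2 CD3 UMIs, and 5 of them had a UMI of a receptor constant region, against 32 of the other 32. The list of 9 dendritic cell markers summed to 7390 CPM in that fraction (263 CPM without the 11 barcodes) and to 0 to 54.7 CPM in the other 5. The macrophage gene Lyz2 was found in 67.6% of endothelial cells of this library, against 18.4% to 31.5% elsewhere, whereas the neutrophil gene S100a8 was found in 25.9% of them, against 38.8% in WT and 58.1% in KO at 24 h after ligation. The main results from KO at 72 h are therefore also given without the 11 barcodes.

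CD3 cells were a larger share of the heart's non-cardiomyocytes after ligation than after sham. They made up 0.263% of kept cells in WT sham (0.144 to 0.441) and 0.189% in KO sham (0.0943 to 0.338). At 24 h after ligation the share was 1.84% in WT (1.41 to 2.37) and 1.04% in KO (0.811 to 1.31). At 72 h it was 1.72% in WT (1.36 to 2.15) and 0.952% in KO (0.690 to 1.28). All 4 ligation libraries lay above both sham libraries, with intervals that did not overlap. Relative to sham, the share at 24 h was 7.01-fold in WT (3.87 to 13.6) and 5.51-fold in KO (2.90 to 11.5).

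The CD3 share of KO was below that of WT at both times after ligation. The difference was -0.804 percentage points at 24 h (-1.37 to -0.311) and -0.773 points at 72 h (-1.27 to -0.298), and at sham it was -0.074 points (-0.270 to 0.109), within counting error. Neutrophils took up different parts of the libraries, at 14.7%, 10.9%, 35.6%, 52.6%, 16.5% and 13% of kept cells. Among cells other than neutrophils, CD3 cells were 0.308%, 0.212%, 2.86%, 2.19%, 2.06% and 1.09%. On that base the genotype difference at 24 h was -0.670 points (-1.60 to 0.184), no longer beyond counting error. At 72 h it was -0.971 points (-1.55 to -0.413), and with the 11 MHC class II barcodes left out the KO share of kept cells at 72 h was 0.708% and the difference from WT among cells other than neutrophils -1.25 points (-1.81 to -0.721).

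Between 24 h and 72 h the CD3 share of kept cells differed by -0.118 points in WT (-0.748 to 0.476) and by -0.088 points in KO (-0.453 to 0.305), both within counting error. Among cells other than neutrophils the same step was -0.799 points in WT (-1.71 to 0.018) and -1.10 points in KO (-1.73 to -0.511), and with cells thinned to 1000 UMIs it was 0.174 in WT and -0.375 in KO (-0.810 to 0.020), the latter then within counting error. The depth of the other cells bears on the shares of KO at 72 h, because 1000 UMIs were needed to be kept. With a minimum of 2000 UMIs the CD3 share at 72 h was 1.42% in KO and 1.88% in WT, a difference of -0.459 points (-1.08 to 0.207) that lay within counting error, and with 500 UMIs it was 0.690% and 1.71%.

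NK cells showed no such step. They were 0.0938%, 0.206%, 0.156%, 0.104%, 0.182% and 0.177% of kept cells, and in none of the 7 contrasts did their share differ beyond counting error. The largest ratio, KO sham over WT sham, was 2.19 (0.720 to 7.95), and the ratio of ligation at 24 h to sham was 1.66 in WT (0.383 to 7.23) and 0.505 in KO (0.168 to 1.39). NK cells were 26.3% and 52.2% of the lymphocytes in sham hearts and 7.81% to 15.7% after ligation, while their share of kept cells stayed within counting error. B cells, for comparison, were 0.282%, 0.601%, 3.28%, 1.93%, 4.29% and 1.77% of kept cells, also higher after ligation in both genotypes.

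**Figure D2:**
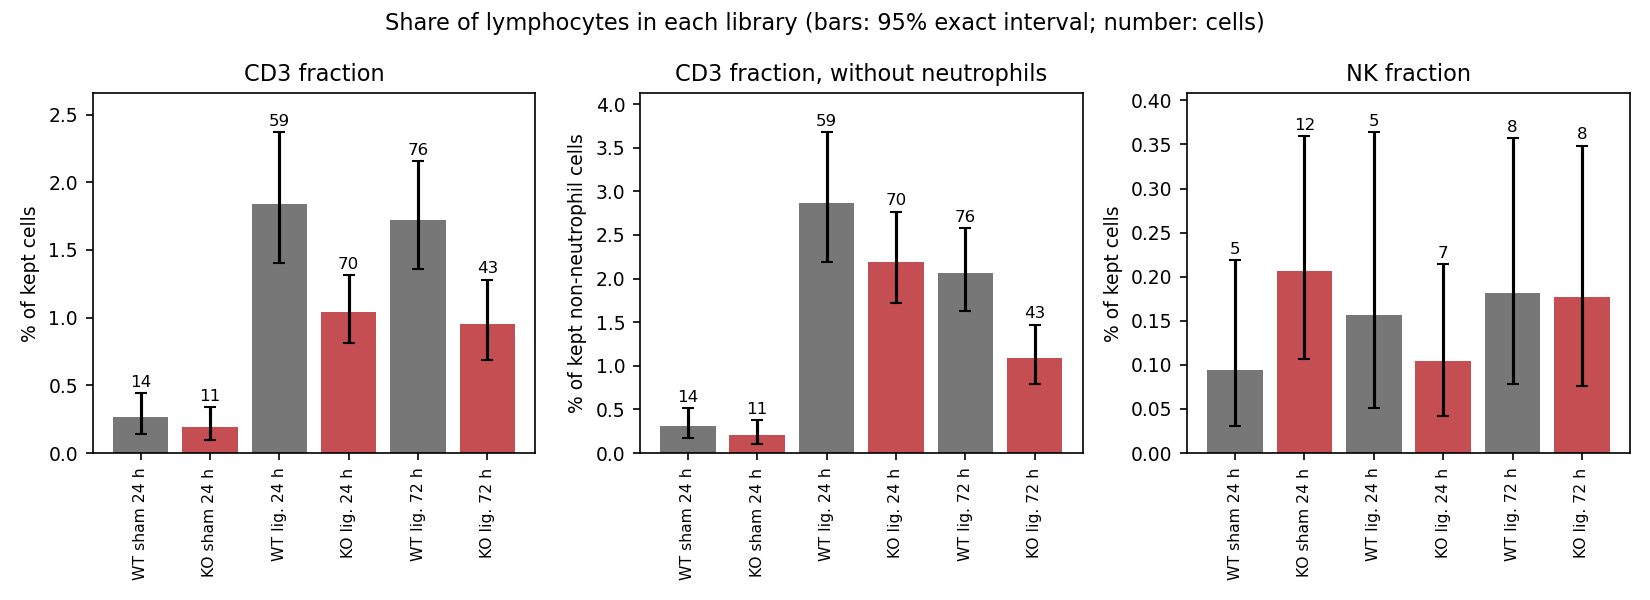
Share of CD3 cells among kept cells (left), of CD3 cells among kept cells other than neutrophils (middle) and of NK cells among kept cells (right), in %, for WT (grey) and KO (red) libraries. Bars are 1 library each, error bars are exact 95% intervals and numbers are cells: the CD3 bars of all ligation libraries stand above sham, and all NK intervals overlap.

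CD8 cells were the largest class that the co-receptor genes defined. Cd8a or Cd8b1 without Cd4 was found in 108 of 273 CD3 cells (39.6%), by library in 4, 4, 21, 23, 36 and 20 cells. Cd4 without Cd8 was found in 33 cells (12.1%), by library 2, 2, 9, 7, 12 and 1. Neither gene had a UMI in 131 cells (48.0%), among them all gamma delta cells described next, and Cd4 and Cd8 calls rest on few UMIs. The CD8 part did not differ beyond counting error in any contrast. Gamma delta cells, with Trdc or gamma chain UMIs and no Trac, numbered 17 (6.23%), by library 2, 1, 0, 5, 3 and 6. Without the MHC class II barcodes those of KO at 72 h numbered 3, CD8 cells there 19 and CD4 cells 1. Foxp3, the regulatory T cell factor, was found in 13 cells (4.76%), 0 in both sham libraries and 4, 5, 3 and 1 after ligation. The counts of 0 allow up to 21.4% of the 14 cells of WT sham and 27.3% of the 11 of KO sham. Sham and ligation can thus not be told apart for Foxp3.

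The smaller classes carried further genes of their kind that did not define them. Of the 13 Foxp3 cells, 8 had Ctla4 (68 UMIs, 29 of them in 1 KO cell at 72 h), 10 had Ikzf2 and 10 had Tnfrsf4. Il2ra was found in 4 of the 13 (20 UMIs), and none had Nkg7. Among 17 gamma delta cells, 7 had the scavenger receptor Cd163l1 (47 UMIs), a gene of gamma delta cells that make interleukin 17, and 10 had Ccl5 (530 UMIs). Il17a itself had 18 UMIs in 2 of them, 17 of these in 1 WT sham cell, and Scrublet marked both gamma delta cells of WT sham as doublets. CD8 cells held most cytotoxic transcripts: Gzma had 502 UMIs in 16 of 108 CD8 cells and 0 UMIs in 33 CD4 cells, and the chemokine Ccl5 was present in 33 CD8 cells and 3 CD4 cells.

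CD3 cells marked by genes of naive and central memory cells outnumbered effector-marked cells at 24 h after ligation in both genotypes, in KO not with cells thinned to 1000 UMIs, and in WT effector-marked cells were a larger part at 72 h. In KO the intervals of the effector-marked part at the 2 times overlapped. Cells with at least 3 UMIs summed over Ccr7 and Lef1 were marked naive, and cells with at least 3 UMIs summed over Ccl5, Gzma, Gzmb and Gzmk were marked effector, a division chosen after the values were seen. Naive-marked cells alone were 1 of 14, 5 of 11, 40 of 59, 34 of 70, 32 of 76 and 12 of 43. Effector-marked cells alone were 8, 3, 1, 11, 18 and 15 of the same totals, and cells with both marks 0, 0, 3, 0, 1 and 3. In WT the naive-marked part was 67.8% at 24 h (54.4 to 79.4) and 42.1% at 72 h (30.9 to 54.0), and the effector-marked part was 1.69% (0.0429 to 9.09) and 23.7% (14.7 to 34.8). Of the 18 effector-marked cells of WT at 72 h, 14 were CD8 cells. In KO the effector-marked part was 15.7% at 24 h (8.11 to 26.4) and 34.9% at 72 h (21.0 to 50.9), or 10 of 32 cells without the MHC class II barcodes, which left 11 of 32 naive-marked. In WT sham 57.1% of 14 cells were effector-marked (28.9 to 82.3).

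When each cell was thinned to 1000 UMIs, naive-marked cells numbered 0, 1, 9, 7, 2 and 1 and effector-marked cells 5, 2, 1, 9, 14 and 13. In KO at 24 h the order of the 2 marks thus turned. The higher number of effector-marked cells in WT at 72 h than at 24 h was present at equal depth, and the naive mark, which rests on fewer UMIs per cell, was mostly lost.

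**Figure D3:**
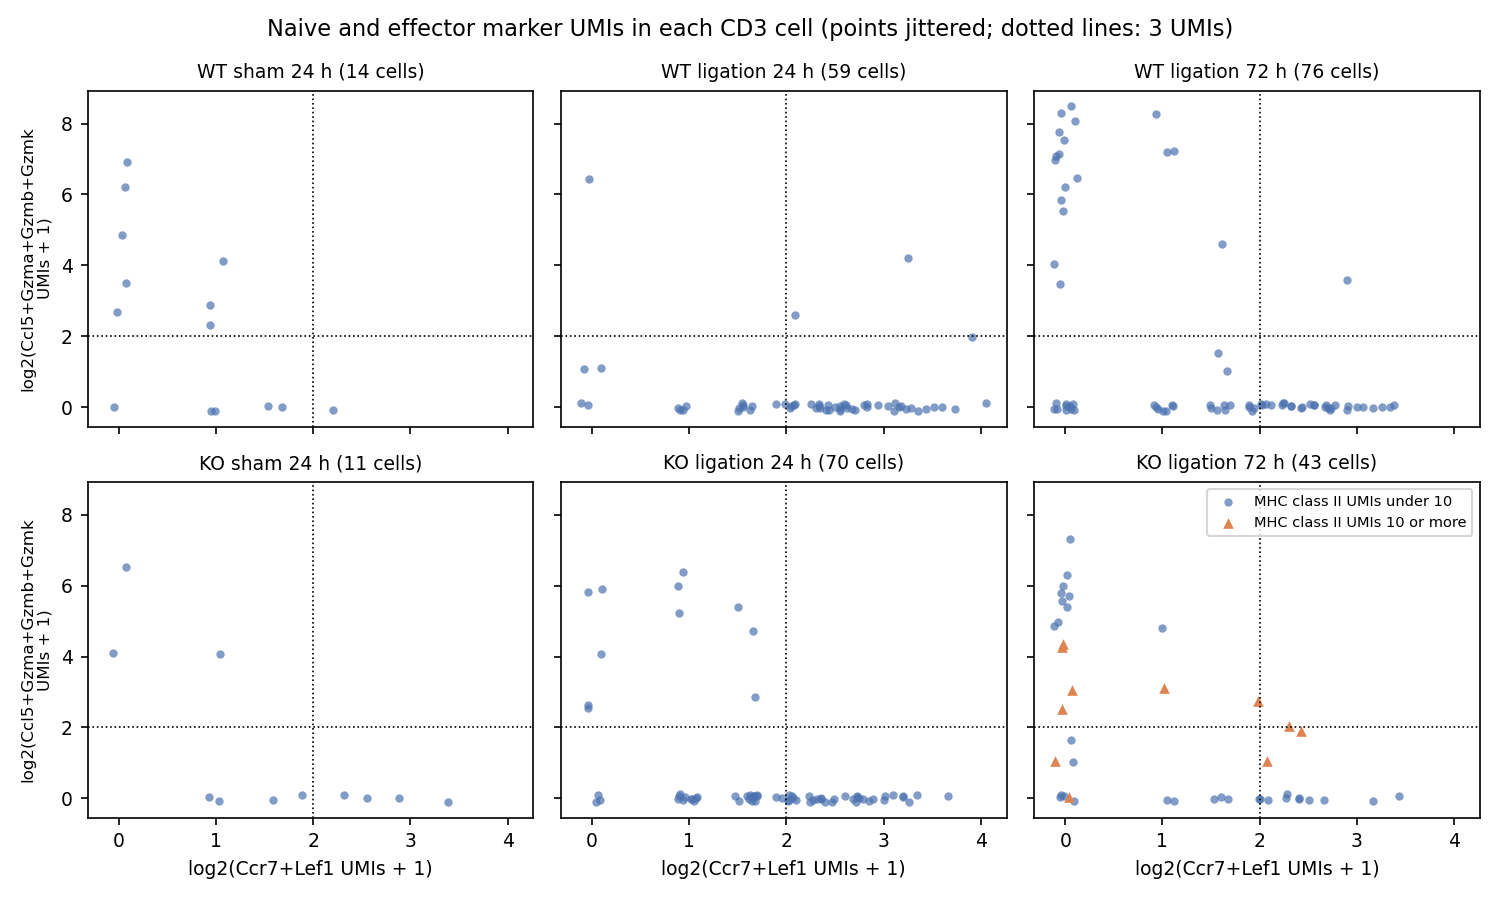
Each CD3 cell by its UMIs of Ccr7 and Lef1 (naive mark) and of Ccl5, Gzma, Gzmb and Gzmk (effector mark), by library. The horizontal axis is log2 of the naive UMIs + 1 and the vertical axis log2 of the effector UMIs + 1, 1 point is 1 cell with a small random shift, dotted lines stand at 3 UMIs and triangles are MHC class II barcodes. WT ligation 24 h holds 1 cell with the effector mark alone and WT ligation 72 h holds 18.

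The genes of these marks show how far apart the libraries lay. Ccr7, the lymph node homing receptor, was at 66.5, 337, 544, 434, 267 and 168 CPM in CD3 cells, highest in both libraries at 24 h after ligation. Lef1, a transcription factor of naive T cells, was at 77.6, 379, 466, 446, 262 and 173 CPM. In both genes the 24 h ligation libraries of WT and KO lay next to each other, above the 72 h libraries and above WT sham. Gzma was concentrated in WT at 72 h, with 0, 0, 14, 1, 551 and 55 UMIs in 0, 0, 2, 1, 15 and 2 cells. Ccl5 had 233, 116, 98, 389, 1808 and 558 UMIs in 7, 3, 5, 11, 19 and 21 cells, so sham CD3 cells held it as well, at 2584 CPM in WT. Gzmb had 15, 0, 4, 16, 225 and 53 UMIs in 3, 0, 2, 2, 16 and 5 cells. Gzma was found in at most 1.08% and Ccl5 in at most 1.62% of endothelial cells, and in at most 2.90% and 4.26% of neutrophils, all in KO at 72 h.

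Gene ratios were taken between libraries with at least 50 CD3 cells each, which left WT at 72 h over WT at 24 h and KO over WT at 24 h. A gene with at least 50 UMIs over the pair was counted as different when its ratio was at least 2 or at most 0.5 and its interval left out 1. Such a ratio compares 2 libraries and not 2 conditions.

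Between 24 h and 72 h in WT, CD3 cells had higher levels of Gzmb, Gzma, Ccl5 and interferon-induced genes and lower levels of genes of the naive list. Of 1523 genes measured, 79 (5.19%) were counted as higher and 84 (5.52%) as lower at 72 h, and the median log2 ratio of all was 0.07. Of the 12 genes of the cytotoxic effector list 4 were measured and 3 were counted as higher (Gzma, Gzmb and Ctsw), and of the 5 lymphocyte chemokines 2 were measured and both counted as higher. Gzmb was at 601 CPM against 14.0 CPM, 42.9-fold (16.5 to 159), and Gzma at 1473 against 49.1 CPM, 30.0-fold (17.7 to 55.2). These cytotoxic proteases are encoded on chromosomes 14 (Gzmb) and 13 (Gzma). Ccl5, which draws T cells and monocytes, was at 4833 against 344 CPM, 14.1-fold (11.5 to 17.4), and Ccl4, a chemokine of the same class, 9.15-fold (3.35 to 34.9). Ctsw, a cathepsin of cytotoxic cells, was 3.31-fold (2.28 to 4.93), the receptor Klrd1 3.14-fold (2.03 to 5.02), the effector transcription factor Id2 2.94-fold (1.91 to 4.67) and the chemokine receptor Cxcr6 3.86-fold (2.24 to 7.07). These genes had their UMIs in more cells at 72 h: Gzmb in 16 against 2, Klrd1 in 34 of 76 against 10 of 59, and Ctsw in 38 against 14.

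Of the 9 genes of the naive and central memory list, 8 were measured, 7 were lower at 72 h and 3 were counted as different, with a median log2 ratio of -0.92. Those 3 were Satb1, a chromatin organiser of T cells, with a ratio of 0.421 (0.313 to 0.563), the interleukin 7 receptor Il7r with 0.484 (0.392 to 0.596) and Ccr7 with 0.492 (0.379 to 0.636). Il7r was at 835 CPM at 24 h and 404 CPM at 72 h, and in KO at 692 and 332 CPM. The integrin Itga4 had a ratio of 0.464 (0.308 to 0.691). The 5 lowest ratios outside the lists were those of Rab21, Hnrnpa0, Trib2, Zfas1 and Ankrd11, between 0.149 and 0.257. They were not all particular to CD3 cells in direction: Rab21 was at 110.4 CPM at 24 h and 35.0 CPM at 72 h in all other kept cells of the same libraries, and Hnrnpa0 at 183 and 59.8 CPM. Of the 16 genes of the T cell receptor list, all were measured and 1 was counted as different, Thy1 at 2.67-fold (1.79 to 4.09), with a list median of 0.20. Neutrophil markers moved in the same pair, at 652 CPM in CD3 cells at 24 h and 24.1 CPM at 72 h, and S100a9 was among the lower genes at 2 UMIs against 73.

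**Figure D4:**
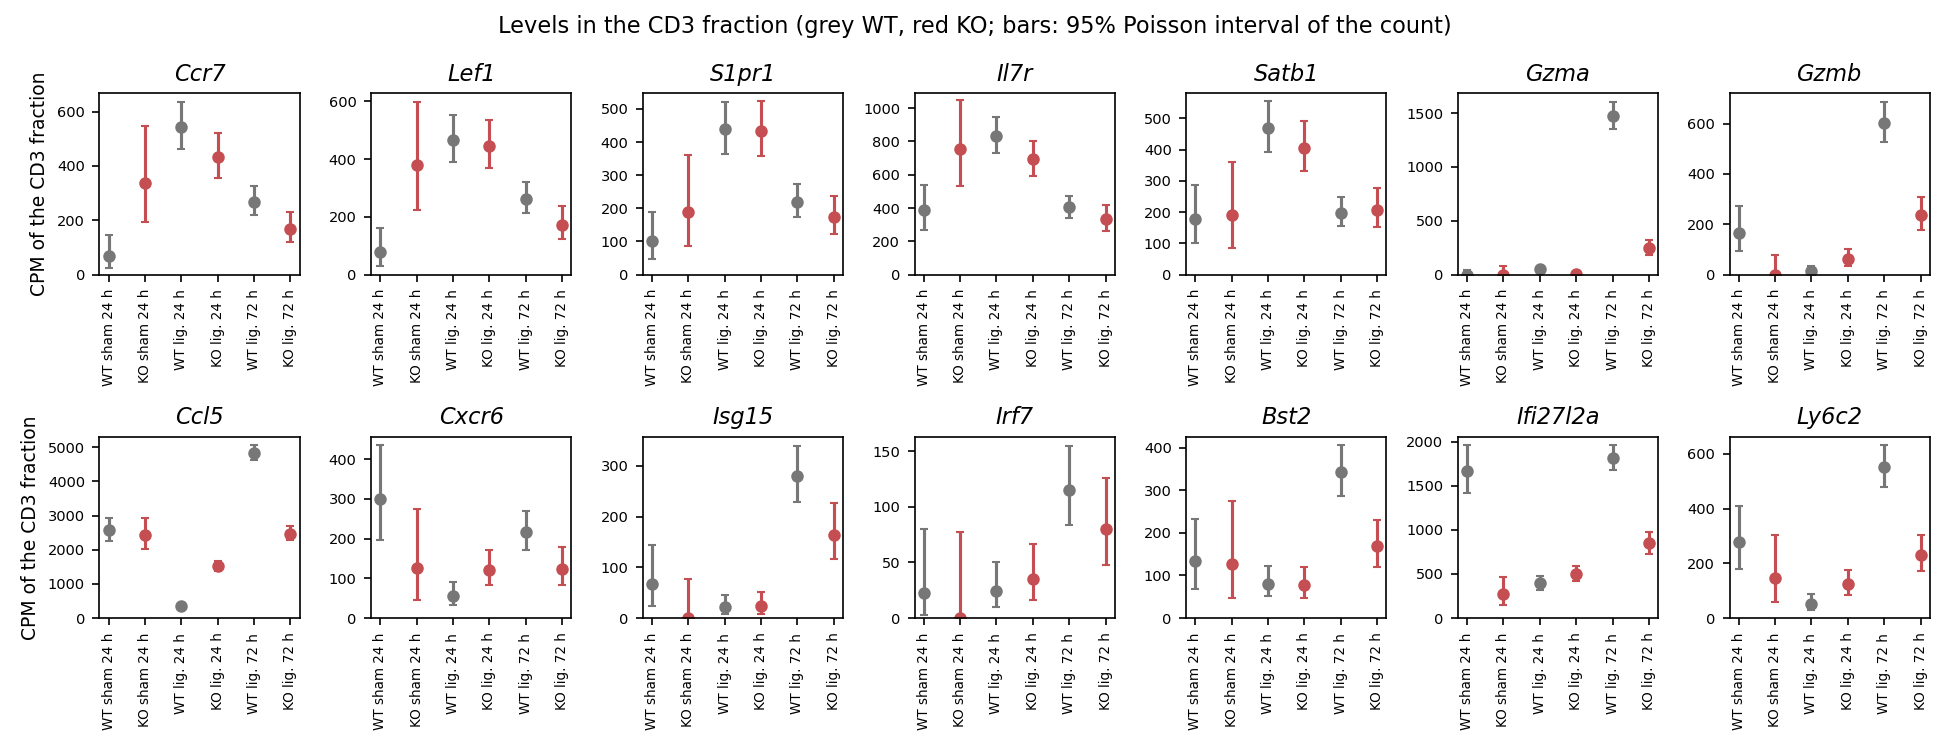
Level of naive, effector and interferon-induced genes in the CD3 fraction of each library, in CPM on the vertical axis, for WT (grey) and KO (red); bars are 95% Poisson intervals. Ccr7 and Lef1 are highest at 24 h after ligation in both genotypes, whereas Gzma, Isg15 and Bst2 are highest in WT at 72 h.

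Interferon-induced genes form the other group that stood higher at 72 h in WT. Of the 29 genes of the list, 11 were measured, 8 were higher (7 relative to the median gene) and 7 were counted as different, with a median log2 ratio of 1.86. Isg15, a ubiquitin-like modifier, was at 66.5, 0, 21.0, 23.5, 281 and 164 CPM across the 6 libraries, 13.3-fold at 72 h over 24 h in WT (5.93 to 37.2). The interferon regulatory factor Irf7 was 4.68-fold (2.09 to 12.3) and the antiviral membrane protein Bst2 4.24-fold (2.71 to 6.93), with Bst2 at 133, 126, 80.7, 78.2, 342 and 168 CPM. Ifi27l2a was 4.63-fold (3.78 to 5.70), the nucleic acid sensor Zbp1 3.64-fold (1.98 to 7.21), and the surface proteins Ly6c2 10.5-fold (6.20 to 19.0) and Ly6a 2.43-fold (1.74 to 3.45). WT at 72 h was the highest of the 6 libraries for Isg15 and Bst2, and KO at 72 h came second for both. Ly6c2 is a monocyte gene as well, and the 12 monocyte and macrophage markers summed to 224 CPM at 24 h and 885 CPM at 72 h in WT CD3 cells. Ly6c2 gave 15 of the 64 UMIs at 24 h and 206 of the 331 at 72 h, and the other 11 markers summed to 172 and 334 CPM. Of these Ccr2, which T cells can also carry, had 6 and 43 UMIs, Ctss 22 and 62 and Lyz2 17 and 12, and Csf1r, which the rule bars, was at 0. Their part in the result was not tested.

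The summed level of the list was higher in effector-marked than in naive-marked CD3 cells of WT at 72 h, at 7752 CPM (7210 to 8324) against 2240 CPM (1999 to 2502). In naive-marked cells of WT at 24 h it was 1749 CPM (1558 to 1956), so a smaller step was also present within cells of 1 mark, and no cell held more than 41 of the 314 UMIs at 72 h. All other kept cells of the same libraries stood at 3134 CPM at 24 h and 5928 CPM at 72 h, also higher at the later time. NK cells of WT held 1651 CPM at 24 h (1088 to 2402) and 1375 CPM at 72 h (1010 to 1828), with no step beyond counting error.

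Promoters of the list were read to see whether they share the interferon-stimulated response element, the site bound by interferon-activated factors. In the 250 bases before the start of 27025 genes (RefSeq, GRCm38.p6), the letters GAAA, any 2 bases and GAAA on either strand were found in 936 (3.46%). They were found in 12 of the 20 listed genes with a promoter entry (60.0%), in 3 of 14 genes of the cytotoxic and lymphocyte chemokine lists (Gzma, Srgn and Serpinb9) and in 0 of 7 of the naive list. The interferon list was set as genes induced by interferon, so its share describes the list and not the CD3 cells. Of the genes counted as higher, Isg15 and Bst2 held it, Irf7 and Ly6c2 did not, and for Ifi27l2a, Zbp1 and Ly6a no promoter was read. The T-box half-site AGGTGTGA, the letters of a site of Tbx21 and Eomes, was in 350 promoters (1.30%) and in none read from the 3 sets. No promoter was read for Ccl5, Ccl4 and Ctsw, which were counted as higher, or for Ccr7 and S1pr1 of the naive list. The matches are letters only and were not tested as sites. The stretches of 100 bases around the matches of Isg15 (chr4:156200836-156200935, minus strand), Bst2 (chr8:71537545-71537644, minus strand) and Gzma (chr13:113101024-113101123, minus strand) are shown 5′ to 3′ on the gene's strand because these 3 genes were counted as higher at 72 h in WT and hold the letters, with the matched letters in capitals.
Isg15: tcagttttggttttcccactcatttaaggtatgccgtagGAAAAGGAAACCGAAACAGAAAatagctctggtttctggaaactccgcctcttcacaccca
Bst2: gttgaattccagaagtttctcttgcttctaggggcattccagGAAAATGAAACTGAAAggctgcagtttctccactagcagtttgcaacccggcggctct
Gzma: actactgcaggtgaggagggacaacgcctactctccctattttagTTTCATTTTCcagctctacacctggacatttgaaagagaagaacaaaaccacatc
Isg15 holds 3 overlapping matches that begin from position -78 to -66 relative to its start, Bst2 holds 2 at -130 and -124, and Gzma holds 1 on the opposite strand at -97. The start of Bst2 in this table is not the start of an annotated GENCODE transcript.

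Between KO and WT at 24 h after ligation, few genes of CD3 cells were counted as different. Of 1178 genes, 10 (0.849%) were counted as higher and 41 (3.48%) as lower in KO, with a median log2 ratio of -0.07. Ccl5 was at 1521 CPM in KO and 344 CPM in WT, 4.43-fold (3.54 to 5.58), in 11 of 70 cells against 5 of 59. Also higher in KO were Ctla2a, a cathepsin inhibitor, at 2.79-fold (2.03 to 3.87), the tetraspanin Cd9 at 2.65-fold (1.57 to 4.65), the T cell surface protein Cd7 at 2.29-fold (1.27 to 4.28; log2 ratio 1.20, and -0.077 with cells thinned to 1000 UMIs) and Socs1, an inhibitor of cytokine signalling, at 2.17-fold (1.20 to 4.07). The platelet chemokine Pf4 was 4.66-fold (2.38 to 9.98), in 8 cells of either library, and the list of platelet and erythroid markers summed to 289 CPM in KO and 49.1 CPM in WT, whose part in the ratio was not tested. None of the naive list's 8 measured genes was counted as different, with 6 lower (4 relative to the median gene) and a median of -0.12, and the 5 measured interferon genes had a median of -0.01. The costimulatory receptor Cd28 was lower in KO, at 70.4 against 158 CPM, a ratio of 0.446 (0.243 to 0.786).

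Many of the other lower genes rested on 1 cell. All 6 measured proliferation genes were lower in KO and 4 were counted, with a median of -1.12, as were the replication genes Hist1h2ap and Dut. Of the 431 Hist1h2ap UMIs in WT, 401 were in a single cell. The deepest WT cell held 38272 UMIs, 13.4% of its fraction, and 18 of the 41 lower genes had 50% or more of their WT UMIs in 1 cell. With the UMIs of each gene's highest cell left out in both libraries and fraction totals unchanged, 22 of the 41 were still counted. Cd28 was among them at 0.478 (0.242 to 0.898), whereas H2afz stood at 0.949 (0.695 to 1.29) and Stmn1 at 1.04 (0.465 to 2.31). With the deepest cell of each library taken out of the totals too, the ratio of H2afz was 0.847 (0.621 to 1.15).

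KO at 72 h had 43 CD3 cells, and its contrasts were added after the data were seen, with a minimum of 40 cells. Relative to WT at 72 h, 81 of 1378 genes (5.88%) were counted as higher and 53 (3.85%) as lower, and 64 and 47 without the MHC class II barcodes. Of the 81, 38 had 50% or more of their KO UMIs in 1 cell. With the UMIs of each gene's highest cell left out and fraction totals unchanged, 37 of the 81 and all 53 lower genes were still counted. Those totals keep the deepest KO cell (53356 UMIs), so the 53 do not show that the lower genes hold without it. With the deepest cell of each library taken out of the totals too, 39 genes were counted as higher and 35 as lower. The highest were H2-Ab1, Cd74, H2-Eb1, H2-Aa and Cst3, which are genes of antigen-presenting cells, and Cd74 had 867 UMIs against 7, or 23 against 7 without those barcodes. Lyz2 was 29.4-fold (16.5 to 57.8), or 14.2-fold (7.74 to 28.6) without them, the adaptor Tyrobp 8.02-fold (5.42 to 12.2) and Fcer1g 6.36-fold (4.25 to 9.78). The part that the MHC class II barcodes and free RNA had in these was not tested beyond leaving the barcodes out. Trdc, of gamma delta cells, was 5.03-fold (3.25 to 8.01), in 8 cells against 3, and 5.45-fold (3.49 to 8.74) without the barcodes.

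Gzma, Gzmb and 10 of the 11 measured interferon-induced genes were lower in KO than in WT at 72 h. Of the 4 measured cytotoxic effector genes 3 were lower and 2 counted, with and without the MHC class II barcodes. Gzma was at 244 CPM in KO and 1473 CPM in WT, a ratio of 0.165 (0.123 to 0.219), in 2 of 43 against 15 of 76 cells, and Gzmb had a ratio of 0.390 (0.284 to 0.529), with 30 of its 53 UMIs in KO in the deepest cell. Without the barcodes the ratio of Gzma was 0.201 (0.149 to 0.265). Counted by cells with the barcodes included, the order was different. Effector-marked cells were 34.9% of CD3 cells against 23.7% in WT, with overlapping intervals. Ccl5 was in 21 of 43 cells against 19 of 76, at a ratio of 0.511 (0.464 to 0.563). Nkg7 was in 27 against 39 cells, at 0.546 (0.451 to 0.658). Most of the 11 barcodes held UMIs of the effector mark's genes. Without these barcodes effector-marked cells were 10 of 32 (31.25%), and the interval still overlapped that of WT. The ratio of Ccl5 was then 0.541 (0.489 to 0.599) and that of Nkg7 0.623 (0.512 to 0.754). Numbers of cells with Ccl5 or Nkg7 are not given without the barcodes, so no order by cells is stated for that setting. The other 4 of the 5 lowest were Znrf1, Ccnd3 (cyclin D3), Cnn2 and Igfbp4, at 0.221 to 0.292. Of 11 measured interferon genes 10 were lower and 4 counted, with a median log2 ratio of -0.78: Ly6a at 0.343 (0.225 to 0.507), Ly6c2 at 0.418 (0.302 to 0.570), Ifi27l2a at 0.465 (0.394 to 0.547) and Bst2 at 0.492 (0.333 to 0.712). The log2 ratio of Ifi27l2a was -1.10, and 0.080 with cells thinned to 1000 UMIs. Without the 11 barcodes the list's median was -1.01 with 5 of 10 counted, and without the deepest cell of each library it was -0.52 with 1 counted.

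All 12 measured genes of the T cell receptor list were lower in KO at 72 h and 7 were counted, with a median of -1.11. They were Thy1 at 0.340 (0.207 to 0.537), Cd28 at 0.349, the adaptor Lat at 0.393, Trbc2 at 0.409, the adaptor Skap1 at 0.412, Trac at 0.442 and the zeta chain Cd247 at 0.487. None of these 7 was used by the rule. The list was not read without Cd3e, Cd3d and Cd3g, whose levels depend on the rule's cutoff. Cells with exactly 2 CD3 UMIs, just inside the rule, were 15 of 43 in KO and 1 of 76 in WT. Without the MHC class II barcodes 12 of 12 were still lower, 5 were counted and the median was -0.94. With the mean over cells 3 were counted (median -0.75), and without the deepest cells 11 were lower and 5 counted (-0.86). Markers of other cells moved in the same pair, and their part in the result was not tested: monocyte and macrophage markers were at 2273 CPM in KO (1241 without the barcodes) and 885 CPM in WT, and neutrophil markers at 487 and 24.1 CPM. Trac was at 722 CPM in WT at 72 h and 319 CPM in KO, and between 358 and 524 CPM in the other 4 libraries, so WT at 72 h was the highest library as well as KO at 72 h the lowest.

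From 24 h to 72 h in KO, genes of the naive list were lower, as in WT, but so were genes of the T cell receptor list. Of 1068 genes, 158 (14.8%) were counted as higher and 52 (4.87%) as lower. Of the 158, 67 had 50% or more of their UMIs at 72 h in 1 cell. With the UMIs of each gene's highest cell left out and fraction totals unchanged, 59 of the 158 and 51 of the 52 were still counted. With the deepest cell of each library taken out of the totals too, 73 genes were counted as higher and 30 as lower. All 8 measured genes of the naive list were lower and 5 were counted, with a median log2 ratio of -1.12 beside 0.14 for all genes: Ccr7 and Lef1 both at 0.388, S1pr1 at 0.398, Tcf7 at 0.440 and Il7r at 0.480. Without the MHC class II barcodes the median was -0.85 with 3 counted, and without the deepest cell -0.88 with 2 counted. All 11 measured genes of the T cell receptor list were lower as well, with 0 counted. That list's median was -0.72 in KO and 0.20 in WT for the same step. Without the barcodes 10 of the 11 were lower in KO, with a median of -0.58. Here too the list was not read without the rule's CD3 genes. Gzma had 55 UMIs against 1, in 2 cells against 1, so it rests on single cells in this genotype. The antiproliferative gene Btg1 was at 571 against 2201 CPM, a ratio of 0.260 (0.213 to 0.315), and in all other kept cells at 431 against 1469 CPM.

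Heat shock and proliferation genes were higher in KO at 72 h than in KO at 24 h, in 6 of 6 measured genes each. Much of this lay in 1 cell with 53356 UMIs, 23.6% of its fraction, which held 471 of the 536 Hist1h2ap UMIs and 34 of the 36 Mki67 UMIs. The same cell held all 11 Foxp3 UMIs and the 1 Cd4 UMI of the KO fraction at 72 h. Without the deepest cell of each library the heat shock median over KO at 24 h was 0.24 in place of 1.22, with 4 of 5 genes higher and 0 counted. Among proliferation genes H2afz was still 2.82-fold (2.14 to 3.74) without that cell, Hmgb2 was 1.31-fold (0.918 to 1.88), and with the mean over cells 5 of 6 were higher and 2 counted, with a median of 0.63.

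NK cells were too few for ratios, and their levels are given as they stand. Ccl5 was present in all 45 NK cells, at 22572, 24612, 11679, 15884, 13778 and 12973 CPM, with both sham libraries above all 4 ligation libraries. Gzma was at 13132, 22552, 7459.9, 14512, 12082 and 5265 CPM, and sham and ligation libraries overlapped. Gzmb was at 923, 715, 245, 739, 5558 and 505 CPM, but 155 of the 190 UMIs in WT at 72 h came from 1 cell. In WT at 72 h most UMIs of the chemokines Xcl1 (240 of 296), Ccl4 (272 of 365) and Ccl3 (186 of 192) were each in 1 cell. Klrb1c lay between 800.3 and 1055 CPM in all 6 libraries. The rule chose NK cells on Ncr1 and Klrb1c, so the levels of these genes partly describe the choice.

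Trpm4 itself was too rare in lymphocytes to compare, but other genes of calcium entry were detected in CD3 cells: the channel Orai1 had 68 UMIs in 61 of 273 cells, the store sensor Stim1 70 UMIs in 55, and the calcium-activated potassium channel Kcnn4 117 UMIs in 88. Kcnn4 was at 66.5, 126, 66.6, 129, 118 and 39.9 CPM, with a ratio of 0.339 (0.145 to 0.704) for KO over WT at 72 h, or 0.411 (0.176 to 0.853) without the MHC class II barcodes.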

How the data were processed

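The authors deposited whole UMI counts per gene and cell for 6 libraries, made with Cell Ranger 6.0.0 against mm10 per the submitters' processing notes; other filters are not given in the sources used here. The counts were used as deposited. Cells with at least 1000 UMIs, at least 200 genes and at most 20% mitochondrial UMIs were kept (30014 of 34940). The members and gene lists were chosen with earlier results of these data known. A gene of the naive list is not reported here and was left out of the list and the naive mark. Doublets were left in, and removed as an alternative at 0.8% per 1000 deposited cells by Scrublet score in scanpy 1.11.5.

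Shares have exact Clopper-Pearson 95% intervals and their differences Newcombe intervals. Within each library the counts of a fraction's cells were added up and scaled to CPM, and the interval of a ratio is exact, conditional on the sum of its 2 Poisson counts. A count of 0 was taken to allow 3 counts. CD3 fractions held 47505 to 374087 UMIs and NK fractions 14088 to 34942.

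Genes were named by a rule: of those counted as different that reached 100 CPM and 10 cells on their higher side and 0.25 of the level of other kept cells, the 5 highest and 5 lowest, without mitochondrial, ribosomal protein and Gm or Rik genes. List members counted as different, the rule's markers and Trpm4 were also named, and for CD3 against NK the 10 highest and 10 lowest. Smaller classes, single cells and genes of other classes were named after their values were seen.

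Alternatives were thinning to 1000 UMIs, other UMI minimums, stricter markers, doublet removal, other count minimums, scaling to the median gene and the mean over cells, and, added after the data were seen, leaving out MHC class II barcodes or the deepest cell and the contrasts of KO at 72 h. Gene positions are from GENCODE M21 and promoters from RefSeq, both GRCm38. Ratios, intervals and thinning were tested on simulated data. Python 3.11.15, numpy 2.4.6, scipy 1.17.1, pandas 2.3.3 and matplotlib 3.10.9 were used.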

Additional observations from a re-analysis of the deposited data

How the results depend on the processing

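No paired analysis was possible because each group had 1 library. Depth also limits these results, since few UMIs per cell mark the smaller classes, and 1 deep cell can hold a gene's counts. CD3 cells were a larger share at 24 h after ligation than after sham in both genotypes under all settings run for the shares. Where a value moved, the cause was not tested unless the setting's own construction shows it.

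With cells thinned to 1000 UMIs, the CD3 share of kept cells at ligation 24 h minus sham was 0.668 points in WT and 0.328 in KO. Among cells other than neutrophils these differences were 1.08 and 0.796 points, and 72 h minus 24 h was 0.174 in WT and -0.375 in KO. The CD4 part of CD3 cells was then 0% in both sham libraries, 4.00% and 3.45% in WT and KO at 24 h, and 1.96% and 0% at 72 h. The CD8 part was 0% in both sham libraries and 20% and 17.2% at 24 h, the Foxp3 part 0% in WT at 24 h and KO at 72 h, and the NK part of lymphocytes 21.6% in KO at 24 h. With doublets removed the gamma delta part was 0% in both sham libraries.

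Counts of genes follow as higher and lower for KO over WT at 24 h, WT at 72 h over 24 h, KO over WT at 72 h and KO at 72 h over 24 h. Thinning, other minimums and left-out cells change how many genes are measured. Counts under these settings are therefore not parts of the same number of genes. Thinned cells gave 2 and 2, 29 and 10, 11 and 13, and 24 and 11. A minimum of 1 UMI gave 121 and 285, 263 and 452, 529 and 179, and 698 and 246. A minimum of 100 UMIs gave 3 and 11, 35 and 34, 36 and 26, and 62 and 22. The mean over cells gave 50 and 35 for KO over WT at 72 h. Relative to the median gene, 79 were lower in KO at 72 h than at 24 h. Of the settings added after the data were seen, leaving out MHC class II barcodes gave 34 lower in KO at 72 h than at 24 h. Leaving out the deepest cells gave 73 and 30 for that contrast, 39 and 35 for KO over WT at 72 h, and 140 higher in WT at 72 h.

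Heat shock medians without the deepest cells were 0.24 for KO at 72 h over 24 h and -0.29 for KO over WT at 72 h, the latter -0.13 with the mean over cells.

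Log2 ratios that changed sign when thinned were those of Cd7 for KO over WT at 24 h (-0.077), Hspd1 (-1.40) and Ifi27l2a (0.080) for KO over WT at 72 h, and Pcna for WT at 72 h over 24 h (0.050). With the mean over cells Hspd1 for KO over WT at 72 h was -0.079. Without the deepest cells, Hsp90aa1 was -0.14 and Hspd1 -0.31 for KO over WT at 72 h, Pcna 0.090 for WT at 72 h over 24 h, and Stmn1 0.087 for KO over WT at 24 h and -0.016 for KO at 72 h over 24 h.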

Other observations

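The 11 cells that met both the CD3 and the NK rule, 1 in WT sham, 2 in KO at 24 h, 6 in WT at 72 h and 2 in KO at 72 h, held transcripts of both kinds. Ccl5 was present in all 11 (828 UMIs), Klrd1, an inhibitory receptor chain, in all 11 and Gzma in 6 (217 UMIs). Trac was present in 5 and Trbc2 in 7, against 0 and 12 of the 45 NK cells. Ccr7 had 2 UMIs in 1 cell. Scrublet marked 1 to 3 CD3 cells in each library at the rate used, and 0 of the 45 NK cells.

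The rule's exclusion genes removed 5, 1, 16, 17, 7 and 28 cells that met the CD3 or NK condition, in the order WT sham, KO sham, WT and KO at 24 h and WT and KO at 72 h. In KO at 72 h, 13 of the 28 had a UMI of Csf1r and 4 a UMI of Cd79a. With at least 3 CD3 UMIs required, the CD3 share at 72 h was 0.620% in KO and 1.70% in WT.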
